A study of Mus musculus with 8 samples.

Results

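The H2-Mv genes are 9 nonclassical (class Ib) major histocompatibility complex genes, H2-M1, H2-M9, H2-M11 and H2-M10.1 to H2-M10.6, taken by gene symbol from the 27532 genes of the deposited table, and all 9 were found. They were measured by RNA sequencing of polyadenylated RNA from the whole dissected vomeronasal organ, the chemosensory organ at the base of the mouse nasal septum. The 4 controls were heterozygous for Tex15 and the other 4 mice were knockouts for Tex15, so every control also carries one mutant copy, and wild-type mice were not analysed here. The mice were adults of 11.4 to 14.6 weeks, with 1 male and 3 females among the heterozygous mice and 3 males and 1 female among the knockouts. Strain, allele and the deleted part of Tex15 were not given in the sources used here.

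Class I heavy chains form a groove of 2 helices over a sheet and usually pair with the light chain beta-2-microglobulin, which B2m encodes. The H2-Mv genes are transcribed in vomeronasal neurons of the basal layer, the layer that uses the G protein subunit Gnao1 and V2R pheromone receptors, and a subset of these neurons transcribes 1 or a few H2-Mv genes. Tex15 is known from male germ cells, where it is required for meiosis and for silencing of transposons. The title of the series asks about Tex15 and the diversity of vomeronasal neurons, and the comparison here asks how the H2-Mv genes of basal neurons differ between the genotypes.

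The 9 genes lie within 531 kb of mouse chromosome 17 (GRCm38, 36284227 to 36815564). Their order is H2-M10.2, H2-M10.1, H2-M10.3, H2-M10.4, H2-M11, H2-M9, H2-M1, H2-M10.5 and H2-M10.6. H2-M11, H2-M10.5 and H2-M10.6 are on the plus strand and the other 6 on the minus strand. H2-M10.4, H2-M11, H2-M9 and H2-M1 are neighbours within 213 kb (36458917 to 36672219), and they are described below as the 4 adjacent genes, a grouping made after their values had been seen. The coding sequences of the H2-M10 genes were 82.9% to 89.6% identical over 15 pairs. H2-M9 and H2-M1 were 85.6% identical, whereas H2-M10 genes against H2-M11, H2-M9 or H2-M1 were 63.3% to 69.3% identical over 18 pairs. The 4 adjacent genes therefore cross the sequence families: H2-M10.4 is an H2-M10 gene by sequence and its 3 neighbours are not.

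The 250 bases before the start of the 4 adjacent genes are printed because these genes moved together across libraries, with H2-M10.1 as the member that differed most from them. They were taken from RefSeq (GRCm38.p6), which lists a start for all 9 members. The windows are chr17:36462330-36462579 for H2-M10.4 (minus strand), chr17:36546825-36547074 for H2-M11 (plus strand), chr17:36642664-36642913 for H2-M9 (minus strand), chr17:36672198-36672447 for H2-M1 (minus strand) and chr17:36326151-36326400 for H2-M10.1 (minus strand). Capitals mark CCAAT on either strand, the letters of a common promoter element, and the TATA box letters TATAAA on the strand of the gene.
H2-M10.4: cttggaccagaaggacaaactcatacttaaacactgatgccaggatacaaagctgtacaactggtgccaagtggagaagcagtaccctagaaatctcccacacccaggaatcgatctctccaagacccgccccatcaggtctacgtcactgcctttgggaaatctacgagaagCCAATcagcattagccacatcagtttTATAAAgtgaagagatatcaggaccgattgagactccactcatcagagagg
H2-M11: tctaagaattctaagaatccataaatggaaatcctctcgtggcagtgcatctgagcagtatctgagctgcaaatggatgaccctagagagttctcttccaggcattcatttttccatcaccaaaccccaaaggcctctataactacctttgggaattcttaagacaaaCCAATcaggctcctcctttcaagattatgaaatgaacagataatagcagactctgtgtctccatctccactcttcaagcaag
H2-M9: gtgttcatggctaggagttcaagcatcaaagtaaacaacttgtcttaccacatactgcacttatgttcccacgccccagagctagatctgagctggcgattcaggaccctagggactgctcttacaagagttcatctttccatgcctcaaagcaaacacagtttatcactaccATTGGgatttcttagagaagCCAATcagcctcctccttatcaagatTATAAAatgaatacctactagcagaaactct
H2-M1: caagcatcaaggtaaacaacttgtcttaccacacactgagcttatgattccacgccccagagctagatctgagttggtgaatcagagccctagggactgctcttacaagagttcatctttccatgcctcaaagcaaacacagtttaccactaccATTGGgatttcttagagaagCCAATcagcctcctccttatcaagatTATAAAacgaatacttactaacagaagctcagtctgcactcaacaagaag
H2-M10.1: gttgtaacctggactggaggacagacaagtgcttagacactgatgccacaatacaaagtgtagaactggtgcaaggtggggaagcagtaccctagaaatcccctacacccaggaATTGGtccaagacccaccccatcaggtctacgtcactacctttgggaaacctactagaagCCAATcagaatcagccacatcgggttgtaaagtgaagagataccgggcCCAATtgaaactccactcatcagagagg
Over all 9 members, CCAAT in the direction of the gene stood 57 to 82 bases before the start, and H2-M10.1 held a further one at 28. For H2-M9 it stood 57 bases before the first start listed and 76 before the second. CCAAT on either strand was found in 9 of 9 members and in 34.5% of 27025 promoters of the same length. TATAAA on the gene's strand was found in 7 of 9 members and in 8.12% of promoters, and the members without it were H2-M11 and H2-M10.1. H2-M9 and H2-M1 shared an unbroken stretch of 60 bases that holds both elements, and their windows were 92.6% identical. The members hold 0 to 5 CG pairs, with H2-M10.4 the highest and H2-M10.6 the lowest, against a median of 6 in all promoters. No member held the homeodomain core TAATTA, which 4.9% of promoters hold. The AP-2 motif GCCNNNGGC (13.6% of promoters) and the palindromic Ebf motif (0.788%) were not found in them either, and all 3 read the same on both strands. The members are related copies, so their matches are not independent, and the CCAAT and TATA elements were chosen after the promoters had been seen. None of these letters set the 4 adjacent genes apart from the other 5.

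Values are TPM as deposited by the authors, transcript abundances scaled by gene length to a common total, and the recovered depth was 17884115 to 26415662 reads per library. Tex15 was 2.27 to 2.81 TPM in heterozygous mice and 0.870 to 1.23 TPM in knockouts, without overlap. Its adjusted p was 0.794 in limma, a linear model fitted across all genes. The basal markers Gnao1, Tfap2e, Robo2 and Bcl11b and the co-receptors Vmn2r1 to Vmn2r7 were present in all 8 libraries. Several libraries stood apart. Heterozygous replicate 1 held 66.6 TPM of Omp, the olfactory marker protein of mature neurons, against 571 to 943 in the other 7. Heterozygous replicate 2, the mouse of 14.6 weeks, had a summed level of the supporting cell markers Cyp2g1 and Cyp2a5 of 3813 TPM, against 651 to 1210 in the others, and of 4 main olfactory neuron markers of 75.8 TPM against 17.3 to 42.8. Heterozygous replicate 2 also had the highest sum of 4 erythrocyte markers, 17204 TPM against 3130 to 10999.5 in the others. Knockout replicate 1 had the fewest reads and the most genes at 0 TPM, 2988 against 1287 to 1808 in the other 7. The titles of heterozygous replicates 1 and 2 carry numbers in the 6000s and those of the other 6 libraries numbers in the 7100s, and the labels do not call these batches. The titles also end in a second number, which is shared by 5 of the 7100s libraries and differs in knockout replicate 4 and in each of heterozygous replicates 1 and 2. The labels do not say what it is, and like the first number it sets these 2 controls apart from every knockout. Genotype and sex were both terms of the fits because of the uneven sexes, which gives heterozygous replicate 1 and knockout replicate 1 a weight of 0.5 each in the genotype difference and every other library 0.167.

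The 9 genes together made 644, 266, 662 and 521 TPM in heterozygous replicates 1 to 4 and 315, 384, 343 and 437 TPM in knockout replicates 1 to 4. The means were 523 ± 183 and 370 ± 52.9 (SD, n = 4 each), and the groups overlapped because heterozygous replicate 2 was the lowest of all 8. In whole tissue, fewer neurons and less RNA per neuron cannot be told apart. H2-M10.3 was the highest member in every library, at 78.6 to 203 TPM in heterozygous mice and 91.2 to 153 TPM in knockouts. By heterozygous mean, the order after it was H2-M10.5, H2-M10.1, H2-M10.2, H2-M10.4, H2-M1, H2-M10.6, H2-M9 and H2-M11, and between neighbours in this order only H2-M10.6 and H2-M9 did not overlap. In knockout libraries the order was H2-M10.3, H2-M10.1, H2-M10.5, H2-M10.2, H2-M10.6, H2-M10.4, H2-M1, H2-M11 and H2-M9. There, H2-M10.3 and H2-M10.1, H2-M10.6 and H2-M10.4, and H2-M1 and H2-M11 were the neighbours whose libraries did not overlap.

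H2-M9, the gene next to H2-M1 and the member closest to it in sequence, fell in knockout libraries. Its level was 13.5, 3.72, 15.3 and 11.5 TPM in heterozygous replicates 1 to 4 and 2.22, 1.16, 1.63 and 2.21 TPM in knockout replicates 1 to 4. Every knockout library was below every heterozygous one, and the knockout mean was 0.164 of the heterozygous mean. The values rest on 77 to 319 recovered reads in heterozygous mice and 20 to 34 in knockouts. Relative to the median gene, H2-M9 fell by 2.44 on the log2(TPM + 0.5) scale (SE 0.48, adjusted p = 0.0275 over 20305 genes, limma with genotype and sex). It was the only member of 9 called lower at an adjusted p under 0.05, where 0.374% of all genes tested were called lower. The call was lost without heterozygous replicate 1 (-1.70, limma adjusted p = 0.751), without knockout replicate 1 (-3.18, limma adjusted p = 0.0546), without knockout replicate 2 (-2.39, limma adjusted p = 0.0593), with no filter on low genes (-2.40, limma adjusted p = 0.168) and with limma-voom on recovered reads (-2.92, adjusted p = 0.0528). With sex in the model and knockout replicate 1 left out, the only heterozygous library with weight is replicate 1, the male with the low Omp. Without the sex term the call held with all 8 libraries and without each library in turn.

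H2-M11, on the opposite strand between H2-M10.4 and H2-M9, showed the next largest difference. Its level was 12.9, 3.53, 12.8 and 12.2 TPM in heterozygous replicates 1 to 4 and 2.88, 1.99, 1.96 and 2.33 TPM in knockout replicates 1 to 4. The groups did not overlap, which held for 2 of 9 members (H2-M9 and H2-M11) against 0.926% of genes tested in this direction. The difference was -2.07 (SE 0.46), with a limma adjusted p of 0.0908. Without the sex term it was -1.97 (SE 0.38, limma adjusted p = 0.0286), and 2 of 9 members, again H2-M9 and H2-M11, were called lower against 0.458% of all genes. With sex and without heterozygous replicate 1, H2-M11 was at -1.31. Of the 2 called without the sex term, H2-M11 was no longer called without heterozygous replicate 1, 3 or 4 or knockout replicate 2 or 3.

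H2-M1 stood at 57.0, 17.1, 61.4 and 47.0 TPM in heterozygous replicates 1 to 4 and at 16.4, 17.2, 11.1 and 16.2 TPM in knockout replicates 1 to 4. Heterozygous replicate 2 lay among the knockout libraries and the other 3 were above all of them. The difference was -1.73 (SE 0.43, limma adjusted p = 0.192). H2-M10.4, the H2-M10 gene at the edge of the 4, was 63.2, 19.9, 59.0 and 57.4 TPM in heterozygous mice and 22.1, 21.1, 14.6 and 17.1 TPM in knockout replicates 1 to 4. Again only heterozygous replicate 2 reached the knockout levels, and the difference was -1.54 (SE 0.41, limma adjusted p = 0.341). Heterozygous replicate 2 was the lowest heterozygous library for all 9 members. Without it, H2-M9, H2-M11, H2-M1 and H2-M10.4 were all called lower, 4 of 9 members, and 202 genes were called in all, against 119 with all 8 libraries. Without heterozygous replicate 1, H2-M1 was at -1.07 and H2-M10.4 at -0.80. Without knockout replicate 1, H2-M10.4 was at -2.29 and H2-M1 at -2.39, and neither gene was called in these fits.

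**Figure D1:**
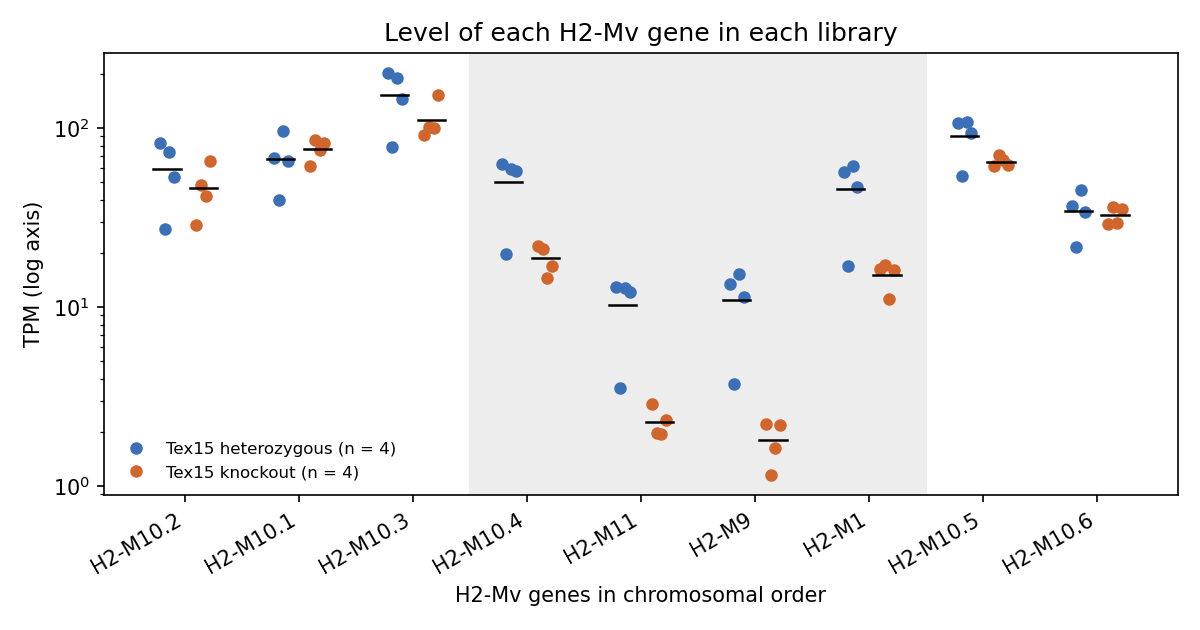
TPM (log axis) of each H2-Mv gene in chromosomal order, 1 point per library and a black line at the mean of each group; blue is Tex15 heterozygous and orange is Tex15 knockout, n = 4 each. Shading marks H2-M10.4, H2-M11, H2-M9 and H2-M1, the 4 adjacent genes. At least 3 of the 4 heterozygous libraries sit above all knockout libraries for these and for H2-M10.5, and the lowest heterozygous point is replicate 2 for every gene.

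The other 5 members, all H2-M10 genes, lie on both sides of the 4 adjacent genes and overlapped between genotypes. H2-M10.1 was 68.4, 39.7, 96.1 and 65.4 TPM in heterozygous mice and 61.2, 85.6, 75.5 and 83.2 TPM in knockout replicates 1 to 4. Its knockout mean was the higher one, which held for no other member, and the difference was -0.090 relative to the median gene (SE 0.35, limma adjusted p = 0.9995), 0.10 before the shift to the median gene, and 0.085 without the sex term. H2-M10.5, whose protein is the H2-Mv member with a known crystal structure, was 106, 54.4, 108 and 94.4 TPM in heterozygous mice and 61.3, 70.5, 66.4 and 62.1 TPM in knockout replicates 1 to 4. As with H2-M1, 3 heterozygous libraries were above all knockout libraries and replicate 2 was not, but the difference was smaller at -0.74 (SE 0.34, limma adjusted p = 0.9995). The difference of H2-M10.5 was -0.35 without heterozygous replicate 1 and -1.14 without knockout replicate 1. H2-M10.2 ranged from 27.4 to 82.5 TPM in heterozygous mice and 28.7 to 65.4 in knockouts, with a difference of -0.90. H2-M10.3 differed by -0.85 and H2-M10.6 by -0.33, both with a limma adjusted p of 0.9995 like H2-M10.2, and H2-M10.6 was at 0.044 when libraries were scaled to Vmn2r1 to Vmn2r7. H2-M10.3 was at -0.43 without heterozygous replicate 1 and at -1.27 without knockout replicate 1. H2-M10.6 ranged from 21.7 to 45.2 TPM in heterozygous libraries and lay between 29.1 and 36.2 in knockouts. The median difference of the 9 members was -0.90 where that of all genes is 0 by construction, and 4 of 9 had an unadjusted p under 0.05, as did 630 of 20305 genes. Without the sex term the median of the 9 members was -0.58, the value of H2-M10.5. The pseudocount of 0.5 TPM makes the differences of H2-M9 and H2-M11 smaller than their ratios of means.

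**Figure D2:**
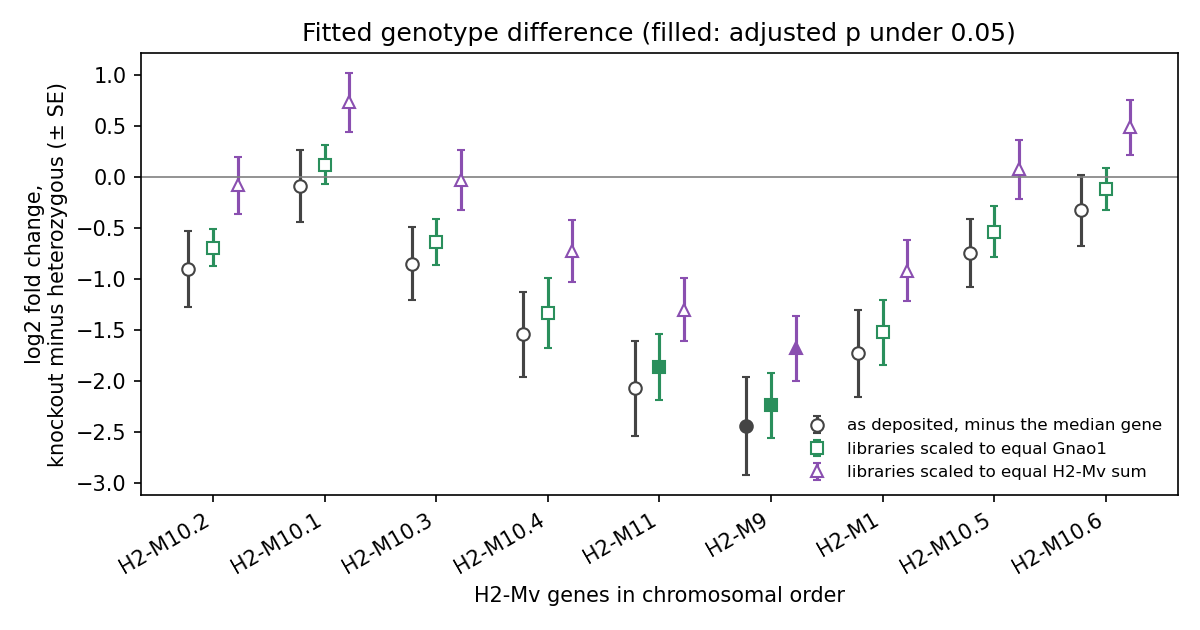
Log2 fold change of each H2-Mv gene, knockout minus heterozygous, with its SE from limma, for TPM as deposited (circles, relative to the median gene), after scaling to equal Gnao1 (squares) and after scaling to equal H2-Mv sum (triangles). Filled symbols have an adjusted p under 0.05, and in all 3 fits H2-M9 is the lowest with H2-M11 next to it.

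Dividing each member by the H2-Mv sum of its library removes the level that all members share. The 4 adjacent genes made up 22.8%, 16.6%, 22.4% and 24.6% of the sum in heterozygous replicates 1 to 4 and 13.8%, 10.8%, 8.55% and 8.65% in knockout replicates 1 to 4. The groups did not overlap, and the means were 21.6% ± 3.47 and 10.46% ± 2.48 (SD, n = 4 each). The 4 genes were grouped after their values had been seen, so their lower share follows in part from that choice. The share was lower in knockouts in both sexes, at 22.8% in the male heterozygous library against a mean of 9.33% in 3 male knockouts, and at a mean of 21.2% in 3 female heterozygous libraries against 13.8% in the female knockout. Among the 7100s libraries the means were 23.5% and 10.46%.

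Taken singly, the shares of H2-M9, H2-M11, H2-M1 and H2-M10.4 were each lower in every knockout library than in any heterozygous one. The share of H2-M9 was 2.00% ± 0.414 in heterozygous mice and 0.497% ± 0.165 in knockouts (SD, n = 4 each). For H2-M11 it was 1.90% ± 0.421 and 0.634% ± 0.187. H2-M1 went from 8.39% ± 1.33 to 4.16% ± 0.867 and H2-M10.4 from 9.31% ± 1.502 to 5.17% ± 1.41. H2-M10.1 took the opposite place, with 10.61%, 14.9%, 14.5% and 12.6% in heterozygous mice and 19.4%, 22.3%, 21.997% and 19.1% in knockout replicates 1 to 4, without overlap. H2-M10.3 kept the largest share, 29.4% ± 1.57 in heterozygous mice and 29.9% ± 3.59 in knockouts. The shares of H2-M10.2, H2-M10.5 and H2-M10.6 also overlapped. Shares of one sum are tied together, so a lower share of 4 genes requires a higher share among the other 5. The effective number of members (exp of their Shannon entropy, 9 if all shares were equal) was 6.65 to 7.17 in heterozygous mice and 5.77 to 6.37 in knockouts.

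In the limma fit after every library was scaled to the same H2-Mv sum, H2-M9 fell by 1.68 (SE 0.32, adjusted p = 0.0256), 1 of 9 members called lower against 0.295% of all genes. The groups did not overlap for 4 of 9 members in the lower direction (0.722% of genes) and for H2-M10.1 in the higher direction (17.5% of genes). The background in the higher direction is large because the median gene shifted by 0.75 on the log2 scale under this scaling. H2-M11 was at -1.30 and H2-M1 at -0.92 (limma adjusted p = 0.0569 for both), H2-M10.4 at -0.73 (limma adjusted p = 0.0713) and H2-M10.1 at 0.73 (limma adjusted p = 0.0649). In this fit 11326 of 20354 genes, and 5 of the 9 members, had an unadjusted p under 0.05. Genes outside the members, among them Omp and Tap1, also had a limma adjusted p of 0.0569, so values near it do not single out members. Without the sex term, 2 of 9 members, H2-M9 and H2-M11, were called lower against 0.403% of genes. Without heterozygous replicate 1 no member was called, and H2-M9 was at -1.32 with a limma adjusted p of 0.490, H2-M10.4 at -0.36 and H2-M10.1 at 0.47. Without knockout replicate 1, where heterozygous replicate 1 is the only heterozygous library with weight, H2-M10.4 was at -1.10. With the title series as a further term and in the 7100s libraries alone with sex, no member was called either. With no filter on low genes the difference of H2-M9 was again -1.68, with a limma adjusted p of 0.0774, and no member was called.

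**Figure D3:**
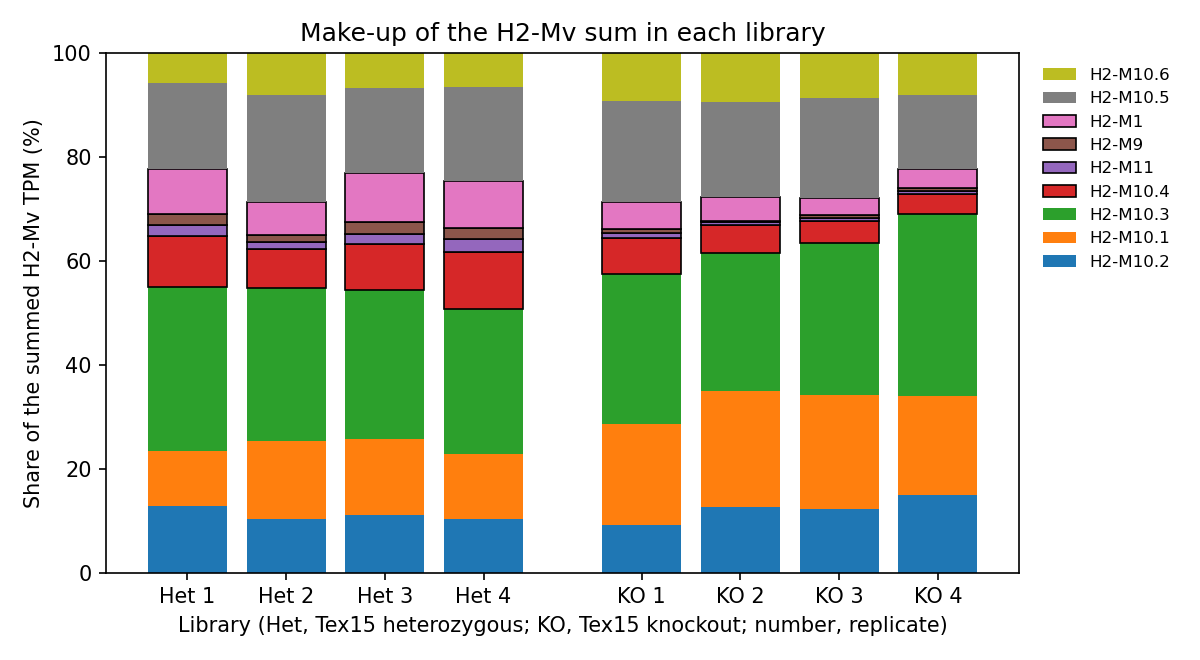
Share of the summed H2-Mv TPM (%) taken by each gene, stacked in chromosomal order from the bottom, for the 4 Tex15 heterozygous and the 4 Tex15 knockout libraries. The outlined blocks are the 4 adjacent genes, which take 16.6% to 24.6% in heterozygous mice and 8.55% to 13.8% in knockouts. The 4 were grouped after their values had been seen.

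Gnao1, the G protein subunit of the basal layer, was used to set the members beside the neurons that hold them. Gnao1 was 20.8 ± 8.25 TPM in heterozygous mice and 19.7 ± 3.22 TPM in knockouts (SD, n = 4 each), with overlap. The ratio of Gnao1 to Gnai2, the G protein subunit of the apical layer, was lower in every knockout library, 0.0700 to 0.0843 against 0.0899 to 0.102. Per TPM of Gnao1, all 9 members summed to 21.6 to 37.2 TPM in heterozygous mice and 17.3 to 21.1 TPM in knockouts, without overlap. On the same scale, the 4 adjacent genes summed to 8.46, 3.83, 4.84 and 5.40 TPM in heterozygous mice and 2.60, 2.28, 1.48 and 1.56 TPM in knockout replicates 1 to 4. These groups did not overlap, heterozygous replicate 1 being the highest by far. As the 4 genes were grouped after their values had been seen, this separation follows in part from the grouping. The other 5 members summed to 28.7, 19.3, 16.7 and 16.6 TPM per TPM of Gnao1 in heterozygous mice and 16.2, 18.8, 15.8 and 16.5 in knockout replicates 1 to 4. Apart from heterozygous replicate 1, both groups lay between 15.8 and 19.3. The part of the low Omp of heterozygous replicate 1 in its high ratios was not tested.

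After scaling to equal Gnao1, H2-M9 fell by 2.24 (SE 0.32, limma adjusted p = 0.0176) and H2-M11 fell by 1.86 (SE 0.32, limma adjusted p = 0.0481). These were the 2 of 9 members called lower, against 0.553% of all genes. H2-M1 was at -1.52 (limma adjusted p = 0.123) and H2-M10.4 at -1.33 (limma adjusted p = 0.268). For these 4 of 9 members the groups did not overlap, against 1.1% of genes. Without the sex term, 3 of 9 members, H2-M9, H2-M11 and H2-M1, were called lower against 0.657% of genes. With sex, no member was called without heterozygous replicate 1, heterozygous replicate 4, knockout replicate 2 or knockout replicate 3, and H2-M9 was then at -1.52, -2.24, -2.14 and -2.21. With the title series as a further term (H2-M9 at -2.26, limma adjusted p = 0.139) and in the 7100s libraries alone with sex (-1.71, limma adjusted p = 0.0670), no member was called either. H2-M11 was also no longer called without heterozygous replicate 3 or knockout replicate 4, with no filter on low genes and with the replicate block (limma adjusted p of 0.0890, 0.0995, 0.0800 and 0.0591), so that its call was lost in 6 of the 8 fits with 1 library left out. Without heterozygous replicate 1, H2-M11 was at -1.12, H2-M1 at -0.87 and H2-M10.4 at -0.59, and without knockout replicate 1, H2-M10.4 was at -2.07.

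**Figure D4:**
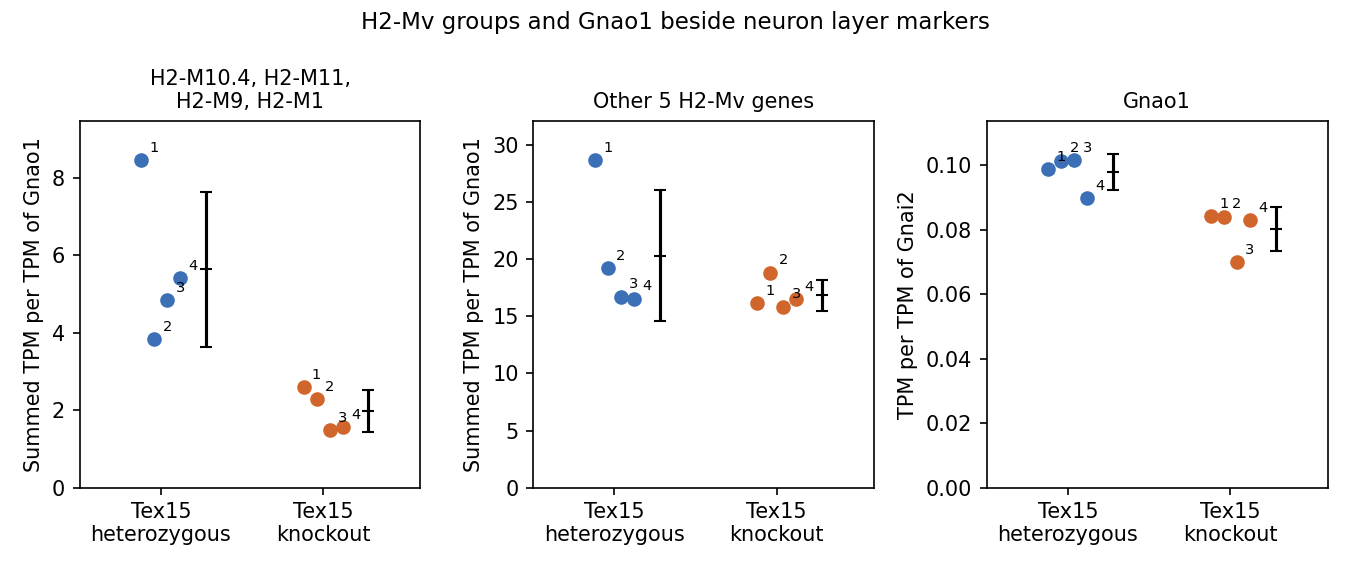
Summed TPM of the 4 adjacent genes and of the other 5 H2-Mv genes per TPM of Gnao1, and TPM of Gnao1 per TPM of Gnai2, with 1 point per library labelled by replicate number and the mean ± SD (n = 4) beside each group. The 4 adjacent genes do not overlap between genotypes (3.83 to 8.46 against 1.48 to 2.60), whereas the other 5 genes do. The 4 were grouped after their values had been seen, so this contrast follows in part from that choice.

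The partners and relatives of the H2-Mv genes were read from the fit to TPM as deposited. B2m, the light chain, was 2638 ± 1190 TPM in heterozygous mice and 2389 ± 791 TPM in knockouts (SD, n = 4 each; difference -0.15, limma adjusted p = 0.9995). Of 10 genes of class I assembly and peptide loading (among them the peptide transporter Tap1 and Tap2 and its partner Tapbp), 0 were called in either direction, with a median difference of 0.10. The classical class I genes H2-K1 and H2-D1 were at 0.16 and -0.14, and 0 of 2 were called. Of 11 class Ib genes of the Q and T regions 0 were called, with a median of -0.03. Of 8 listed class Ib genes of the same M region outside the 9, 3 were found in the table, and H2-M5 was under the filter. H2-M2 and H2-M3 were at -0.11 and -0.087, and 0 of 2 were called. In these 4 lists 0 genes had an unadjusted p under 0.05, and limma-voom on recovered reads also called 0. Class I genes are read from many cell types of the tissue, and markers of immune cells summed to 2164 to 4773 TPM in heterozygous mice and 2237 to 5637 TPM in knockouts. Their part in these class I values was not tested.

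The basal neuron list of Gnao1, Tfap2e, Robo2 and Bcl11b had 0 of 4 called and a median difference of -0.08, against -0.90 for the 9 H2-Mv genes. Markers of main olfactory neurons were at a median of -0.77 (4 genes) and those of olfactory supporting cells at -1.01 (2 genes). In both lists 0 were called by limma or limma-voom and 0 had an unadjusted p under 0.05, and their part in the H2-Mv differences was not tested. Of the mature neuron markers, Omp was at 1.28, with heterozygous replicate 1 the low library, and the list had a median of 0.52 (2 genes tested, 0 called, 1 with an unadjusted p under 0.05, limma-voom 0). Of the 7 family C V2R genes, whose receptors are co-expressed with other V2Rs, 0 were called, and the median was -0.54. Vmn2r5 was the family C gene whose libraries did not overlap, at 7.43 ± 3.02 TPM in heterozygous mice and 14.0 ± 3.47 TPM in knockouts (SD, n = 4 each; difference 0.56, limma adjusted p = 0.9995). The share of all genes without overlap in the higher direction was not counted for TPM as deposited. Of the other 100 V2R genes tested, 6 were called higher and 37 called lower, where 43 and 76 of all 20305 genes were called (0.374% lower). Their median was -1.58, and limma-voom on recovered reads called 57 in either direction, where it called 108 of all genes. For the basal and family C lists, 0 genes had an unadjusted p under 0.05 and limma-voom called 0. These receptors and the H2-Mv genes share the basal layer and the same libraries, so their differences are not independent.

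Between and around the members, 8 pseudogenes of the table lie in the same 531 kb. In all 8 the groups overlapped. The 6 tested had a median difference of -0.79, beside -0.90 for the 9 members. Of these 6, 0 were called by limma or by limma-voom on recovered reads, and 2 had an unadjusted p under 0.05. Knockout replicate 4 was the highest knockout library for 4 of the 5 pseudogenes between H2-M10.3 and H2-M10.4, all but Stk-ps1, as it was for H2-M10.2 and H2-M10.3. Rpl9-ps9 was at 32.9, 9.24, 25.7 and 21.7 TPM in heterozygous mice and 10.997, 17.6, 15.6 and 41.8 TPM in knockout replicates 1 to 4. Rpl9-ps5, between H2-M9 and H2-M1, was 0.730 ± 0.492 TPM in heterozygous mice and 0.205 ± 0.0841 TPM in knockouts (SD, n = 4 each), under the filter and so not tested. The members can be told apart by reads of the length used: in GENCODE M21 transcripts, 100% of stretches of 150 bases of each member occur in no other gene. For stretches of 50 bases this share was 100% for H2-M11, 99.1% for H2-M9 and 98.7% for H2-M1, and 83.8% to 96.3% for the H2-M10 genes. How the counting program treated reads that match several genes was not given in the sources used here.

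Across the 8 libraries, log2(TPM + 0.5) of the 4 adjacent genes varied together, with Pearson r of 0.941 to 0.990 over their 6 pairs. Pairs among the other 5 members had r of 0.479 to 0.953 (10 pairs), and pairs across the groups 0.037 to 0.924 (20 pairs). H2-M10.4 was identical to H2-M11, H2-M9 and H2-M1 at 64.1% to 67.4% of aligned coding bases, and to the other H2-M10 genes at 82.9% to 88.8%. It correlated at 0.941 to 0.989 with H2-M11, H2-M9 and H2-M1 and at 0.174 to 0.924 with the other H2-M10 genes. Its highest value among these was with H2-M10.5, the H2-M10 gene on the far side of H2-M1. The lowest pair of all was H2-M10.1 with H2-M9. These values describe 8 libraries of 2 genotypes that also differ in depth and tissue make-up, and the genotype difference is part of them. The 4 adjacent genes were grouped after their values had been seen, so the high r among them follows in part from that choice.

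**Figure D5:**
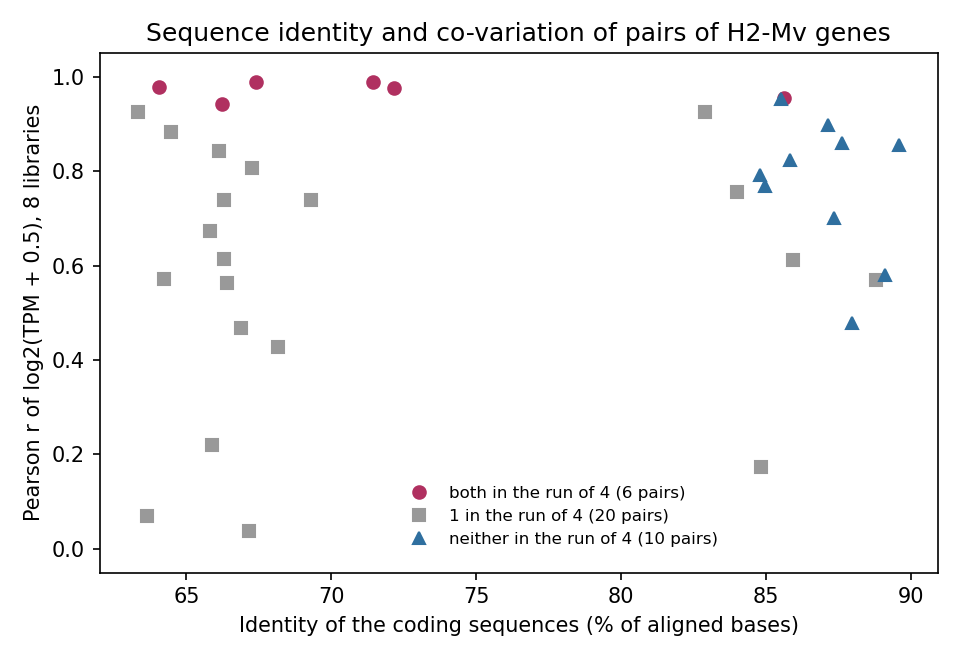
Pearson r of log2(TPM + 0.5) over 8 libraries against the identity of the coding sequences (% of aligned bases) for the 36 pairs of H2-Mv genes. The 6 pairs within the 4 adjacent genes (circles) have r of 0.941 to 0.990 at identities from 64.1% to 85.6%. The 4 were grouped after their values had been seen.

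Among 11578 other genes averaging 5 TPM or more, the gene most like the H2-Mv sum was the V2R Vmn2r73 (Pearson r = 0.951 over 8 libraries), followed by Gm36028 (0.939), the family C V2Rs Vmn2r3 (0.939) and Vmn2r2 (0.914), and Lysmd2 (0.909). The gene most like H2-M10.3 was also Vmn2r73 (0.964), and for H2-M10.2 and H2-M10.6 it was Vmn2r3 (0.956 and 0.965). The 4 adjacent genes had other nearest genes: Prxl2b for H2-M10.4 (0.972), H2-M11 (0.989) and H2-M1 (0.982), and Ddt for H2-M9 (0.983). H2-M10.1 was nearest to Mthfd2 (0.991) and H2-M10.5 to H2bu2 (0.944). Each is the highest of many values over only 8 libraries, and they are given as descriptions.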

How the data were processed

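The authors deposited 1 table of TPM per gene and library. Per the submitters' processing notes, Trim Galore 0.6.5, cutadapt 5.1, STAR 2.7.11b and deepTools 3.5.5 were used with mm10/GRCm38, and the counting program and its annotation were not given in the sources used here. Per the labels' protocols, libraries were directional and sequenced as paired reads. Each library summed to 1000000 TPM and 0 sample columns were left unused.

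Values were analysed as log2(TPM + 0.5) for genes averaging 0.5 TPM or more, with limma 3.58.1 in R 4.3.3 (lmFit, eBayes with trend, genotype and sex), Benjamini-Hochberg adjustment over all genes tested and calls at an adjusted p under 0.05. The fit was repeated after scaling to the summed H2-Mv TPM and to Gnao1. Differences in TPM as deposited are given relative to the median gene, which shifted by 0.19 (−0.01 after median-ratio scaling), while p-values are of the fit as made. Reads were recovered from TPM and GENCODE M21 exon lengths for 26729 genes, and 97.8% to 98.3% of values of up to 20 reads fell within 0.05 of a whole read. Depths cover counting error only. Each library is 1 mouse by its title, and p-values measure the spread between these mice. Same-numbered libraries of the 2 groups did not vary together (r of -0.061 to 0.097). The members, gene lists and tests were chosen with earlier results of these data known. Named genes are the 9 members, Tex15, layer markers, the most similar genes and list genes that were called or did not overlap. Stk-ps1, Rpl9-ps9 and Rpl9-ps5 and the class I genes with values were named after their values were seen. Alternatives are given in the closing section.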

Additional observations from a re-analysis of the deposited data

Results flagged for a closer look

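In 4 of the 46 groups of 4 libraries examined, the highest or lowest library lay far from the other 3 by Dixon's criterion, where chance gives about 1 in 20. Heterozygous replicate 2 was lowest for H2-M10.4 at 19.9 TPM, with the other 3 heterozygous libraries at 57.4 to 63.2. The same library was lowest for H2-M11 at 3.53 TPM, with the others at 12.2 to 12.9. It also had the lowest share of H2-M1 in the H2-Mv sum, 6.42% against 8.85% to 9.28%. Knockout replicate 1 had the highest share of H2-M11 among knockouts, 0.912% against 0.518% to 0.573%.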

How the results depend on the processing

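As deposited, limma with sex called 1 of 9 members (H2-M9, 119 genes in all). The count of members was 0 with no filter on low genes (72 genes in all) and with limma-voom on recovered reads (108). It was 2 (H2-M9 and H2-M11) without sex, with the replicate block without sex, at an adjusted p under 0.1, scaled to Gnao1 and Gnai2, and scaled to Vmn2r1 to Vmn2r7 (130 to 152 genes in all). It was 3 (with H2-M1) with robust variances (145 genes in all), with the title series as a term (152), scaled to Omp (284), and in the 7100s libraries with sex (371), and 4 (with H2-M10.4) in the 7100s libraries without sex (184). Leaving out 1 library gave 0 to 4: 0 without heterozygous replicate 1 (83 genes in all) and without knockout replicate 1 (111) or 2 (103), 2 without heterozygous (254) or knockout replicate 4 (190), and 4 without heterozygous replicate 2 (202). With sex in the model, the 7100s libraries and the fit without heterozygous replicate 1 hold 1 knockout library with weight, replicate 1, and the fits without knockout replicate 1 hold 1 heterozygous library with weight, replicate 1, the male with the low Omp. Without the sex term, chosen after seeing the data as a result of its own, the count was 2 and leaving out 1 library gave 1 to 4, the 4 again without heterozygous replicate 2 (158 genes in all, against 132). H2-M9 was among the called in each of these 8 fits. Median-ratio scaling also called H2-M9, and the split of all calls went from 43 higher and 76 lower to 28 and 127.

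Relative to the H2-Mv sum, with 165 genes called in all (100 with no filter and 148 without sex), 1 member was called with sex. The count was 0 with no filter, with the title series as a term and in the 7100s libraries with sex, 2 without sex, with the replicate block without sex and in the 7100s libraries without sex, 3 with robust variances (4735 genes in all) and 5 at an adjusted p under 0.1 (12303 genes in all). Leaving out 1 library gave 0 to 5, the 5 without heterozygous replicate 2 (11654 genes in all) or knockout replicate 1 (9435 genes in all) and the 0 without heterozygous replicate 1. Without the sex term it was 2, and leaving out 1 library gave 1 to 2. Relative to Gnao1, with 150 genes called in all, 2 members were called with sex. The count was 1 with no filter and with the replicate block with sex, and 0 with the title series as a term and in the 7100s libraries with sex. Leaving out 1 library gave 0 to 2, and without the sex term, where the count was 3, 1 to 3, the 1 without knockout replicate 2. The causes were not tested.

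H2-M10.1, at -0.090 as deposited (0.10 before the shift to the median gene) and between -0.21 and 0.030 with 1 library left out, turned to 0.085 without sex (with or without the replicate block), 0.13 in the 7100s libraries without sex, 0.030 without heterozygous replicate 1, 0.29 scaled to Vmn2r1 to Vmn2r7 and 0.058 with limma-voom without sex. Scaled to Omp, which is low in heterozygous replicate 1, it was -1.37, and the 9 members ranged from -3.65 to -1.37 (H2-M10.6 -1.60, H2-M10.5 -2.02). Apart from H2-M10.1, the members lay between -1.70 and -0.070 without heterozygous replicate 1 and between -3.18 and -0.59 without knockout replicate 1, against -2.44 to -0.33 with all libraries. H2-M10.6 turned to 0.044 scaled to Vmn2r1 to Vmn2r7. The directions of the other 7 members held in all alternatives of the fit as deposited. The replicate block shares only a number. The share of the 4 adjacent genes differed by -11.1 points over all libraries, by -7.37 among females, where 1 knockout library remains, and by -10.1 to -12.8 with 1 library left out. The summed level differed by -153 TPM, and by -107 to -239 TPM with 1 library left out, most without heterozygous replicate 2. H2-M9 and H2-M11 rest on 20 to 34 reads per knockout library, limiting precision.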
